A study of Pyrus pyrifolia with 12 samples.

Results

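CuiYu is a pear variety (Pyrus pyrifolia) whose fruit skin was sequenced here in 3 of the 12 libraries of a study of 4 varieties, each with 3 libraries that the labels call biological replicates. Its members were taken from the variety label alone, and its raw counts were set against Akibae, Nijisseiki and SuCui NO.1. The fruit were left untreated and came off the tree at maturity in orchards at Yizheng, Jiangsu. Maturity fell 105 days after full bloom for CuiYu and SuCui NO.1, 120 days for Akibae and 135 days for Nijisseiki. CuiYu and SuCui NO.1 therefore shared a harvest day, while in the pairs with Akibae and Nijisseiki the variety and the day of harvest cannot be told apart. No transgene, mutation or agent separates the groups, and each stands for the skin of 1 variety in 1 place. A gene counted as higher or lower in CuiYu where all 3 pairwise tests gave an adjusted p under 0.05 and the same sign.

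Fruit skin is an epidermis over a few layers of smaller cells, and it seals the fruit with a cuticle. The cuticle is a polyester of hydroxylated fatty acids, cutin, filled and covered with waxes, which are very-long-chain alkanes, alcohols, esters and triterpenes. In russet pears the cuticle cracks and a cork layer, whose walls carry suberin and lignin, replaces the epidermis as the outer barrier. Cutin and suberin are built by related enzymes: fatty acids are activated by acyl-CoA synthetases, hydroxylated by cytochromes P450, joined to glycerol by acyltransferases, and exported by ABCG transporters.

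The 12 libraries held between 11981445 and 15136559 counted reads, and CuiYu replicate 1 was the deepest. On the first and second principal components of log2 levels, which took 31.8% and 26.1% of the variance, the 3 CuiYu libraries lay between 63.1 and 69.2 and between -128.7 and -112.8. On the second component the lowest of the other libraries lay at -10.9. Nijisseiki replicate 1 stood apart from its group, at -25.6 on the first component where the other 2 Nijisseiki libraries lay at -89.1 and -87.2. Without it, 624 genes were higher and 651 lower in CuiYu by the rule above.

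With all libraries, 555 of the 26307 genes tested (2.11%) were higher in CuiYu than in each other variety, and 604 (2.3%) were lower, together 4.41%, by edgeR's quasi-likelihood test with Benjamini-Hochberg adjustment. In the single pairs, 8.09% of genes were higher and 6.99% lower than in Akibae, 7.37% and 8.03% than in Nijisseiki, and 8.58% and 8.86% than in SuCui NO.1. The same rule gave 65 higher and 215 lower genes for Akibae, 60 and 79 for Nijisseiki, and 436 and 634 for SuCui NO.1. Among the genes called higher in CuiYu, 554 had their lowest CuiYu library above the highest of the 9 others, which was so for 7.48% of all genes tested. Of the genes called lower, 592 had their highest CuiYu library below all 9 others, against 6.08% of all genes. The difference from the nearest variety was at least 2-fold for 425 (76.6%) of the higher and 503 (83.3%) of the lower genes, and at least 10-fold for 140 and 183. That nearest variety was SuCui NO.1 for 243 (43.8%) of the higher and 253 (41.9%) of the lower genes. The calls rested on all 3 CuiYu libraries. Without CuiYu replicate 1, 2 or 3 the higher counts were 269, 240 and 351, and the lower counts were 349, 322 and 397.

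**Figure D1:**
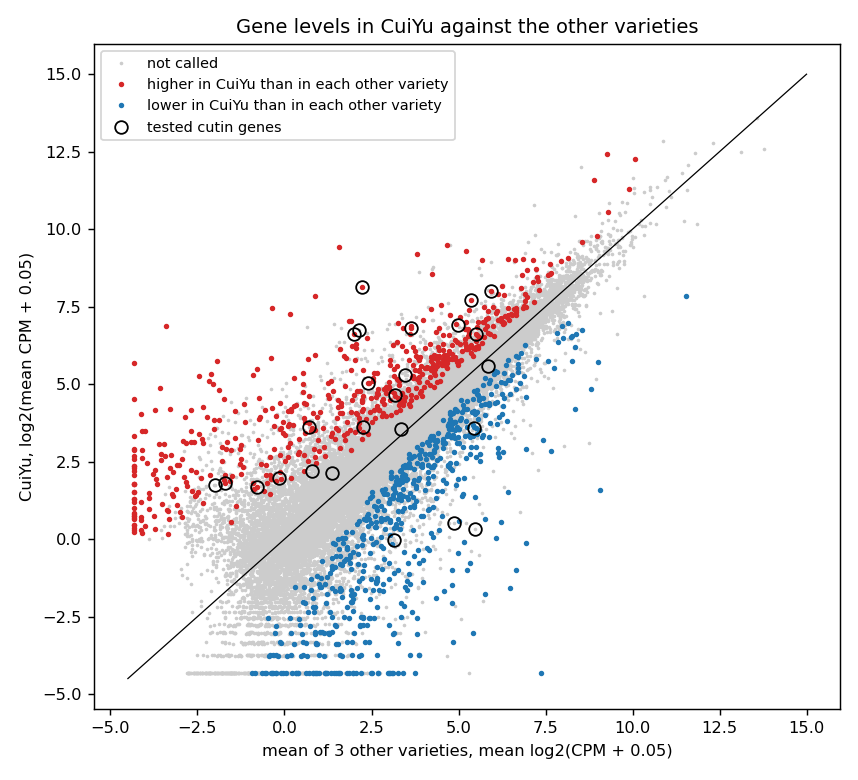
Each point is 1 of the 26307 genes tested, placed by its mean level in CuiYu (vertical) and the mean of its levels in the other 3 varieties (horizontal), both as CPM plus 0.05 on log axes. The 555 genes called higher and the 604 called lower are coloured, and the 55 lower genes without a CuiYu read lie along the bottom edge.

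Genes of cutin assembly were the group with the largest share higher in CuiYu among the 35 gene lists counted. Of the 25 cutin genes tested, 9 (36%) were higher than in each other variety and none was lower, against 2.11% and 2.3% of all genes. Every step named above was represented: an acyl-CoA synthetase, a pair of P450s, acyltransferases and an ABCG transporter. The median log2 difference of the 25 genes from the mean of the others was 1.94, where the median of all genes tested was -0.03, and 20 of the 25 were above 0. The list matched 45 genes, so 20 with few or no reads were not tested. Against the mean of the others, 16 were higher and 2 lower, where 11.3% and 8.33% of all genes were. The 2 lower ones were another DCR gene (gene19417), with 1.39 CPM in CuiYu against 14.4, 19.8 and 84.9 CPM (adjusted p 0.0379), and an ABCG11 gene of cuticle export (gene30640), with 1.2 CPM against 33.7, 38.8 and 65.8 CPM (adjusted p 0.0401). Without CuiYu replicate 1 or 2, 4 of the 25 were called higher, and without CuiYu replicate 3 or SuCui NO.1 replicate 3, 5 were.

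The acyltransferase DCR (gene32423, on chromosome 1, 865373 to 865983), which in Arabidopsis is needed to build hydroxylated fatty acids into the cutin polymer, showed the widest gap from its nearest variety among these 9 genes. It was counted at 1.85, 1.12 and 2.55 CPM in the Akibae libraries, 4.35, 1.73 and 1.33 in those of Nijisseiki, 9.54, 23 and 8.39 in those of SuCui NO.1 and 105, 103 and 87.8 CPM in those of CuiYu. All 3 CuiYu libraries stood above the 9 others, SuCui NO.1 lay next, and Akibae and Nijisseiki overlapped. The log2 difference of CuiYu from the mean of the others was 4.64 ± 0.35 (SE), the smallest of the 3 folds was 7.22, and the largest of the 3 adjusted p was 0.00329. The other 4 genes with the DCR name summed to 123 CPM in CuiYu and 74.5, 51.2 and 146 CPM in Akibae, Nijisseiki and SuCui NO.1. Of these, gene19417, gene18204 and gene10233 had listed lengths of 1492, 1679 and 1806 bases, against 519 for gene32423, and none was called. Whether gene32423 is a whole gene was not tested.

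The P450 CYP86A22 (gene23333, on chromosome 6, 9002661 to 9005054) is named after a petunia enzyme that hydroxylates the end of fatty acyl chains. Its levels were 0, 0.0798 and 0 CPM in the Akibae libraries, 50.4, 24 and 9.66 in those of Nijisseiki, 44.6, 67.3 and 32.2 in those of SuCui NO.1 and 257, 279 and 305 CPM in those of CuiYu. Akibae held 1 read of it over 3 libraries, Nijisseiki and SuCui NO.1 overlapped, and CuiYu was above both by at least 5.83-fold, with a largest adjusted p of 0.00727. The ratio of CuiYu to Akibae was 10867 (95% interval 1950 to 429279), an exact interval that, like the floors used for genes with 0 reads, covers counting error only. A second P450, CYP77A3 (gene29947, on chromosome 7, 222127 to 224038), belongs to a family whose Arabidopsis member CYP77A6 hydroxylates within the chain. It gave 38.2, 60.2 and 38.1 CPM in the Akibae libraries, 47.7, 60.2 and 66.3 in those of Nijisseiki, 26.7, 41.9 and 36.7 in those of SuCui NO.1 and 102, 92.2 and 98.8 CPM in those of CuiYu. Its libraries did not overlap those of the other varieties, but the difference was small, with a log2 value of 1.11 ± 0.17 (SE) and a largest adjusted p of 0.0466. That call was lost in 9 of the 12 fits that left out 1 library.

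The exporter ABCG32 (gene20409, on chromosome 2, 2343013 to 2350827), which moves cutin precursors out of Arabidopsis epidermal cells, was at 6.24, 5.9 and 3.38 CPM in the Akibae libraries, 16.7, 21.9 and 9.03 in those of Nijisseiki, 20.3, 31.7 and 17.1 in those of SuCui NO.1 and 107, 115 and 112 CPM in those of CuiYu. The CuiYu libraries lay within a narrow range, and Akibae lay below both other varieties. Its log2 difference was 3.17 ± 0.25 (SE), with a smallest fold of 4.84 and a largest adjusted p of 0.00176. A second gene with the same name (gene22538) had its lowest mean in CuiYu, 12 CPM against 60.8, 56.7 and 24.1 CPM in Akibae, Nijisseiki and SuCui NO.1, and was not called (log2 -1.87 ± 1.01, adjusted p 0.217 against the mean).

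Glycerol-3-phosphate acyltransferases of the GPAT4, 6 and 8 group make the monoacylglycerols from which cutin is polymerised. GPAT8 (gene32439, on chromosome 7, 11657873 to 11661371) was counted at 51.1, 46.8 and 40.6 CPM in the Akibae libraries, 80.9, 92.7 and 44.8 in those of Nijisseiki, 61.8, 92.8 and 54.8 in those of SuCui NO.1 and 260, 248 and 262 CPM in those of CuiYu. Nijisseiki overlapped both Akibae and SuCui NO.1, and all 3 lay below CuiYu, by a smallest fold of 3.53 and with a largest adjusted p of 0.00167. GPAT6 (gene19410, on chromosome 4, 4225757 to 4228562) had its means in the order Akibae, Nijisseiki, SuCui NO.1, CuiYu, at 2.7, 1.84 and 1.88 CPM in the Akibae libraries, 6.78, 6.65 and 2.59 in those of Nijisseiki, 15.9, 14.9 and 6.81 in those of SuCui NO.1 and 37.4, 33.3 and 28.1 CPM in those of CuiYu. Its smallest fold was 2.62, over SuCui NO.1, and its largest adjusted p was 0.0336. A second GPAT8 gene (gene17438, on chromosome 1, 11231389 to 11233273) was scarce everywhere, with means of 0.105, 0.262 and 0.53 CPM in the others and 3.48 CPM in CuiYu, and a largest adjusted p of 0.0381. Its listed length was 655 bases, against 1761 for gene32439.

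LACS1 (gene13555, on chromosome 9, 1780980 to 1788087), which activates long fatty acids for cutin and wax in Arabidopsis, followed the same order of varieties as GPAT6. It was at 19.1, 20.5 and 25.1 CPM in the Akibae libraries, 54.5, 29.7 and 22.5 in those of Nijisseiki, 114, 90.7 and 57.7 in those of SuCui NO.1 and 232, 254 and 146 CPM in those of CuiYu. CuiYu replicate 3 was the lowest CuiYu library and still lay above the highest SuCui NO.1 library, and the largest adjusted p was 0.0317. HOTHEAD (gene17229, on chromosome 9, 10072855 to 10080095), an Arabidopsis oxidoreductase of long-chain fatty acids, was higher in CuiYu at a low level, 3.15 CPM against 0.418, 0.718 and 0.476 CPM, with a largest adjusted p of 0.0263. A more abundant HOTHEAD gene (gene25700) was at 0, 0 and 0.3 CPM in the Akibae libraries, 43.3, 14.8 and 5.39 in those of Nijisseiki, 31.2, 33.7 and 13.7 in those of SuCui NO.1 and 110, 117 and 94.6 CPM in those of CuiYu. It passed the tests against Akibae and Nijisseiki, and missed the threshold against SuCui NO.1 with an adjusted p of 0.0611, so it was not called.

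Of the 9 genes, DCR, CYP86A22, ABCG32 and the abundant GPAT8 kept their call in all 12 fits that left out 1 library. GPAT6 and LACS1 lost it in 4 fits each, with adjusted p of 0.06 to 0.1 and 0.064 to 0.12, HOTHEAD in 5 (0.051 to 0.11) and the scarce GPAT8 in 7 (0.052 to 0.11). Per length of gene, the authors' deposited FPKM values put DCR first in CuiYu, with a mean of 183 FPKM, followed by GPAT8 with 141, CYP86A22 with 113 and LACS1 with 64.6 FPKM. In Akibae the highest of these 4 was GPAT8, with 25.4 FPKM, and DCR had 3.43 FPKM. The DCR gene has a listed length of 519 bases, against 1761 for GPAT8, 2394 for CYP86A22 and 3149 for LACS1, which raises its FPKM. In CPM its CuiYu mean of 98.5 was the lowest of the 4, below 257, 280 and 211. Summed over the 25 cutin genes, CuiYu held 1586, 1495 and 1425 CPM, and the 9 other libraries held between 298 and 730 CPM.

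**Figure D2:**
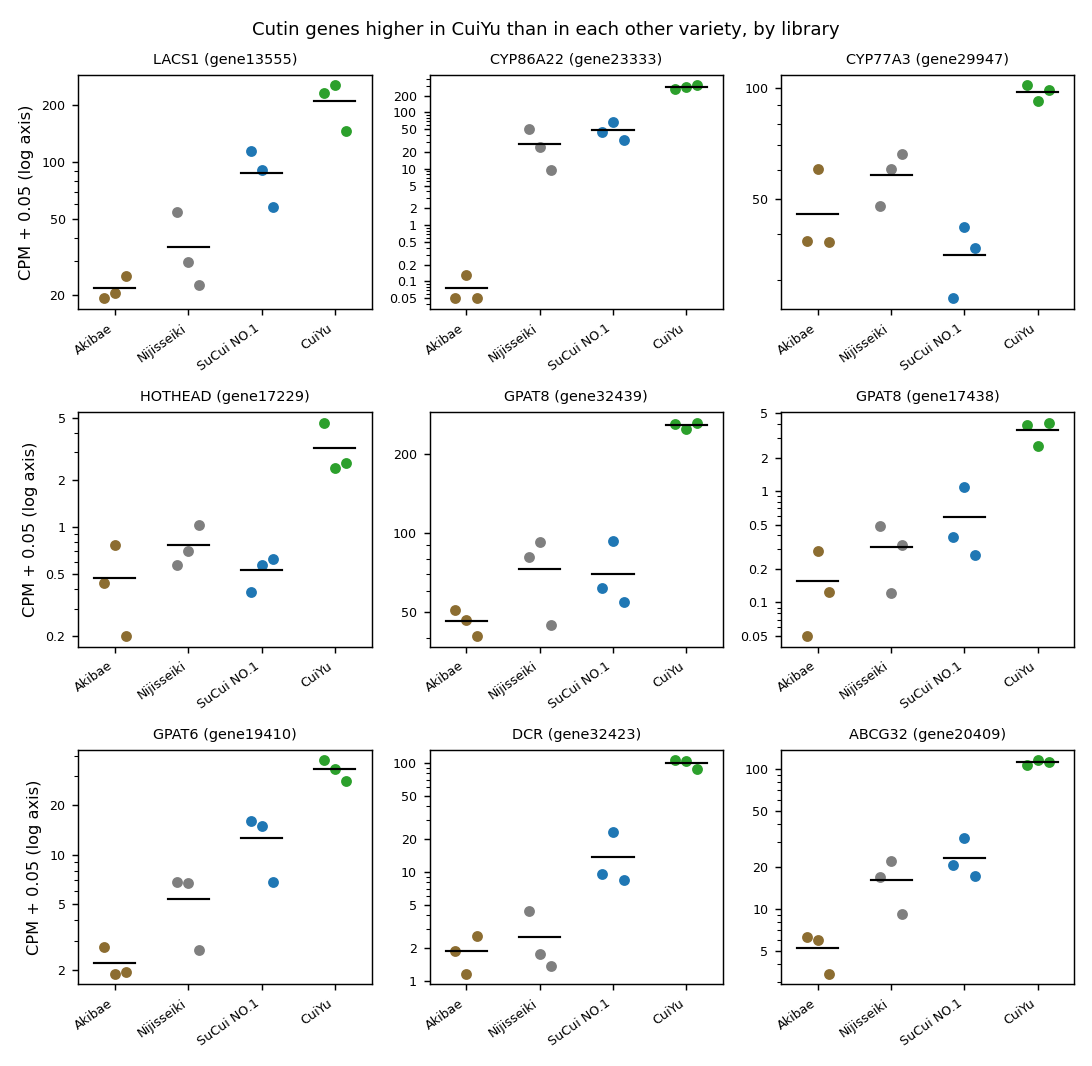
The 9 panels show the cutin genes called higher in CuiYu, with 1 dot per library and a black bar at the variety mean, as CPM plus 0.05 on a log axis. In each panel the 3 CuiYu dots lie above all 9 others, and SuCui NO.1 is the nearest variety for most genes.

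The list of epidermis markers holds protodermal and HD-ZIP class IV factors. Of its 18 genes 8 had no read and 6 were tested. None was called against each variety, and 3 of the 6 were higher than the mean of the other varieties, beside 11.3% of all genes. HDG1 (gene40832) had 55.7 CPM in CuiYu against 21.4, 31.3 and 26.1 CPM in Akibae, Nijisseiki and SuCui NO.1, with an adjusted p of 0.0055. PROTODERMAL FACTOR 2 (gene187) had 2.87 CPM against 0, 0.6 and 2.34 CPM (adjusted p 0.00084), and HDG2 (gene34266) had 2.89 CPM against 0.469, 0.512 and 1.22 CPM (adjusted p 0.016). ANTHOCYANINLESS 2 (gene32858) and HDG11 (gene7859) were above 0 but did not pass (adjusted p 0.083 and 0.071). HDG12 (gene36437) was below 0, with a log2 difference of -0.33 (adjusted p 0.59). The summed level of the 6 was 76.8 to 96.3 CPM in CuiYu, against 30.8 to 51.5 in Akibae, 41.0 to 61.4 in Nijisseiki and 35.7 to 55.8 in SuCui NO.1. The part of the epidermal share in the cutin result was not tested, and in whole skin fewer cells of a type and less RNA per cell cannot be told apart.

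Of 33 wax genes tested, 15 were higher and 1 lower than the mean, beside 11.3% and 8.33% of all genes, and 25 were above 0 with a median of 0.68. Against each variety, 2 (6.1%) were higher and none was lower, beside 2.11% and 2.3% of all genes. That count ran from 1, without CuiYu replicate 1 or 3 or SuCui NO.1 replicate 1 or 3, to 4, without Nijisseiki replicate 1. The first was an ECERIFERUM 1 gene (CER1, gene30156, on chromosome 7, 5365465 to 5372230), for the enzyme that makes wax alkanes, at 0, 0 and 0 CPM in the Akibae libraries, 0.522, 0.145 and 0.21 in those of Nijisseiki, 0.753, 0.818 and 0.359 in those of SuCui NO.1 and 6.54, 2.26 and 3.69 CPM in those of CuiYu. Akibae held no read of it, which puts CuiYu at least 54.6-fold higher than a floor of 3 reads over the 3 libraries, and the largest adjusted p was 0.021. The second was a hydroxyacyl-CoA dehydratase (gene14514, on chromosome 13, 9415976 to 9418616) that acts in the elongation of very-long-chain fatty acids. It was at 26.2, 27.7 and 27.5 CPM in the Akibae libraries, 30.4, 36.9 and 23 in those of Nijisseiki, 38.6, 41.4 and 31.1 in those of SuCui NO.1 and 83.4, 88.1 and 74.2 CPM in those of CuiYu. Its libraries did not overlap those of any other variety, and its log2 difference was 1.39 ± 0.14 (SE) with a largest adjusted p of 0.00248, kept in all 12 fits that left out 1 library.

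An abundant elongation gene, 3-ketoacyl-CoA synthase 10 (gene10410), showed the graded pattern behind those counts. Its mean was 437 CPM in CuiYu, 150 in SuCui NO.1, 39.6 in Nijisseiki and 1.13 in Akibae, and its difference from SuCui NO.1 did not pass (adjusted p 0.212). Summed wax gene levels were 1261 to 1528 CPM in CuiYu, 574 to 951 in SuCui NO.1, 346 to 706 in Nijisseiki and 332 to 342 in Akibae.

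Suberin genes, which stand here also for cork cells, were not called in either direction against each variety. Of the 19 tested, 17 were below 0 and the median log2 difference was -1.65, while the summed level was 618, 546 and 468 CPM in CuiYu and 174 to 732 CPM in the other libraries. In single pairs, a feruloyl transferase gene (gene3755) was lower than in Akibae (log2 -5.16, adjusted p 0.00963) and an ABCG6 gene (gene29115) lower than in SuCui NO.1 (log2 -5.38, adjusted p 0.0206). They had 3 and 4 reads over the CuiYu libraries. The suberin omega-hydroxylase CYP86A1 (gene22741) was at 21.1, 12.6 and 11.3 CPM in the Akibae libraries, 1.83, 25.1 and 7.56 in those of Nijisseiki, 1.42, 15.9 and 0.359 in those of SuCui NO.1 and 4.87, 0.978 and 1.55 CPM in those of CuiYu. Libraries of 1 variety were spread widely: Nijisseiki replicate 1 was far below the other Nijisseiki libraries, and SuCui NO.1 replicate 2 far above the other SuCui NO.1 libraries. The glycerol acyltransferase GPAT5 (gene3597) split the same libraries, at 13.9, 11.7 and 9.38 CPM in the Akibae libraries, 1.74, 22.4 and 7 in those of Nijisseiki, 1, 10.5 and 0.287 in those of SuCui NO.1 and 4.87, 0.527 and 1.4 CPM in those of CuiYu. The 2 suberin genes above 0 were the elongation enzyme KCS20 (gene40020), with 293 CPM in CuiYu against 36.4, 95.9 and 134, and the very-long-chain hydroxylase CYP86B1 (gene6685), with 205 CPM against 67.4, 142 and 121. Both passed the test of CuiYu against the mean of the others, with adjusted p of 0.0018 and 0.0435. By that test 2 of the 19 suberin genes were higher and 0 lower, beside 11.3% and 8.33% of all genes. In single pairs KCS20 was higher than in Akibae (adjusted p 0.00131) and Nijisseiki (0.027), and CYP86B1 higher than in Akibae (0.0194). These 2 genes held most of the summed suberin level in CuiYu.

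**Figure D3:**
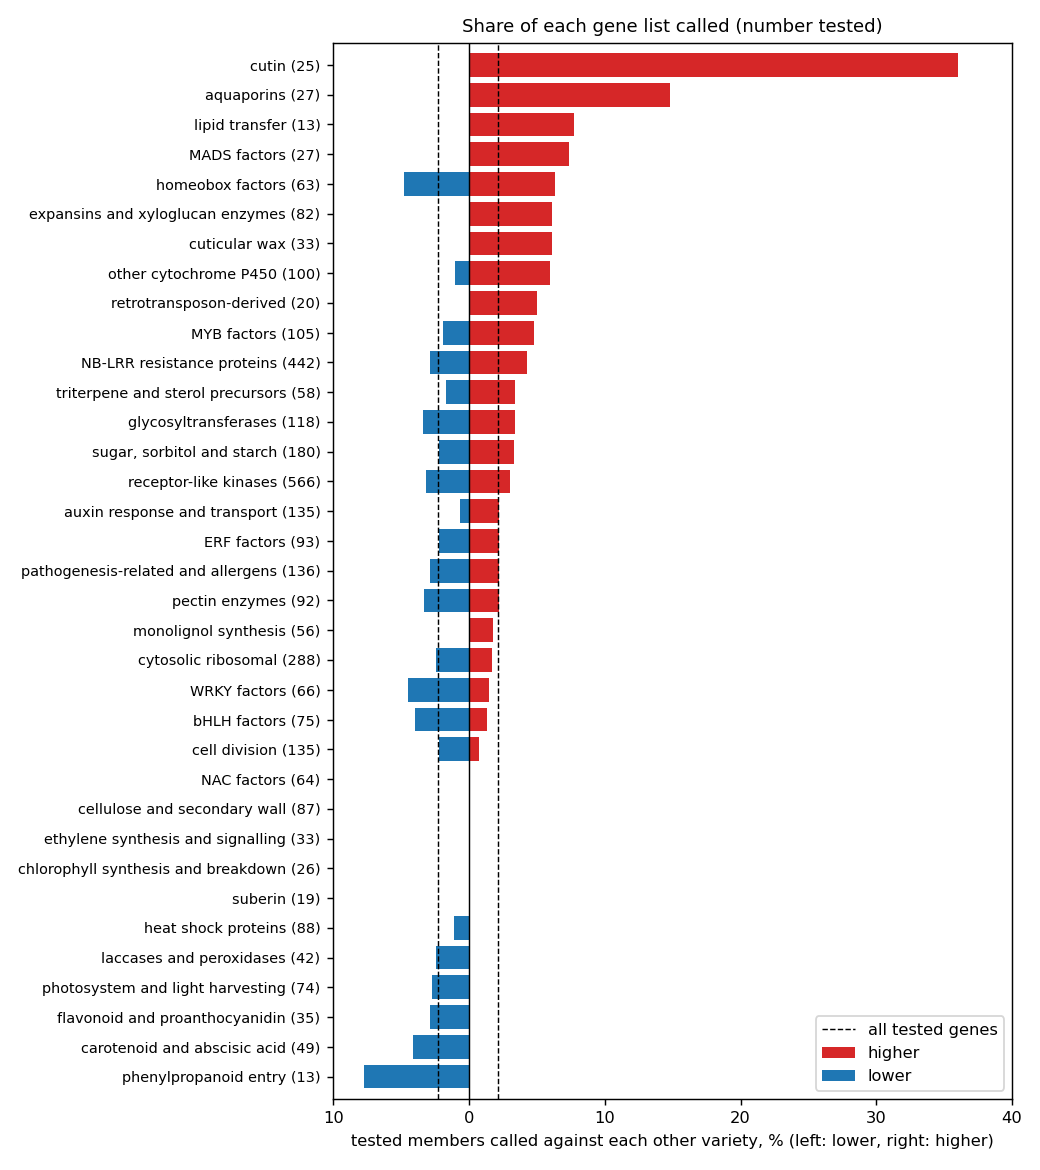
Bars give the percent of tested genes in each list that were higher (to the right) or lower (to the left) in CuiYu than in each other variety, and dashed lines mark the 2.11% and 2.3% of all genes tested. Cutin has the longest bar, with 36% higher and none lower, followed by aquaporins with 14.8%.

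Expansins loosen the cell wall, and xyloglucan enzymes build and remodel the polymer that ties its cellulose. Of 82 expansin and xyloglucan genes tested, 5 (6.1%) were higher and none was lower, beside 2.11% and 2.3% of all genes, and 52 were above 0 with a median of 0.45. Without Akibae replicate 1 the count was 2, and without Akibae replicate 2 or any 1 CuiYu library it was 3. The expansin gene EXPA8 (gene22815, on chromosome 11, 3217193 to 3219050), for a protein that lets wall polymers slip, was at 10.8, 31.7 and 55.5 CPM in the Akibae libraries, 7.39, 8.53 and 16.7 in those of Nijisseiki, 2.76, 39.9 and 14.9 in those of SuCui NO.1 and 391, 448 and 291 CPM in those of CuiYu. CuiYu was 11.5-fold above Akibae, its nearest variety, with a largest adjusted p of 0.0165, and the call was lost without Akibae replicate 1 or 2 (0.06 to 0.067). EXPA15 (gene11692, on chromosome 17, 18923874 to 18925793) reached 1.93, 15 and 5.03 CPM in the Akibae libraries, 5.65, 4.55 and 19.2 in those of Nijisseiki, 2.09, 96.6 and 16.3 in those of SuCui NO.1 and 329, 968 and 461 CPM in those of CuiYu. CuiYu did not overlap the other varieties, but SuCui NO.1 replicate 2 lay well above its group, the largest adjusted p was 0.0464, and 8 of 12 single exclusions ended the call (0.051 to 0.13).

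The other 3 wall genes differed less and more evenly. The xyloglucan galactosyltransferase XLT2 (gene40634, on an unplaced scaffold), which adds galactose to xyloglucan side chains, was at 19, 10.9 and 6.75 CPM in the Akibae libraries, 9.83, 14.1 and 18.8 in those of Nijisseiki, 8.54, 15 and 17.4 in those of SuCui NO.1 and 68.5, 73.3 and 58.6 CPM in those of CuiYu. The other varieties overlapped one another, and the log2 difference of CuiYu was 2.32 ± 0.28 (SE) with a largest adjusted p of 0.0039. A xyloglucan endotransglucosylase gene (gene35908, on chromosome 16, 19882201 to 19886195), whose product cuts and rejoins xyloglucan, had 55 CPM in CuiYu against 13.9, 13.2 and 17. Both kept their call in all 12 single exclusions. A GT17 galactosyltransferase gene (gene32129) had 79.6 CPM against 40.7, 34.1 and 33.7, and lost its call in 5.

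Aquaporins, the membrane channels for water and small solutes, had 4 of 27 genes tested (14.8%) higher and none lower, beside 2.11% and 2.3% of all genes. Their median log2 difference was 0.38. The count was 1 without CuiYu replicate 1 or 2, and 2 without Akibae replicate 1 or 2 or SuCui NO.1 replicate 1 or 3. The most abundant was the plasma membrane channel gene PIP1-4 (gene4260, on chromosome 7, 16131323 to 16132883), at 1073, 810 and 1094 CPM in the Akibae libraries, 946, 973 and 1410 in those of Nijisseiki, 764, 849 and 809 in those of SuCui NO.1 and 2646, 2256 and 2567 CPM in those of CuiYu. Its CuiYu libraries agreed closely and stood above the 9 others by a smallest fold of 2.24, with a largest adjusted p of 0.0072, and no single exclusion ended the call. PIP1-3 (gene17440, on chromosome 1, 11240092 to 11283068) was at 135, 104 and 214 CPM in the Akibae libraries, 42, 157 and 121 in those of Nijisseiki, 46.2, 77 and 51.5 in those of SuCui NO.1 and 647, 594 and 303 CPM in those of CuiYu. SuCui NO.1, harvested on the same day, was the lowest variety for it, and the call was lost in 4 single exclusions (0.09 to 0.12). The genes NIP1-1 (gene573), with a mean of 28.9 CPM in CuiYu, and aquaporin-4 (gene30676), with 4.59 CPM, were scarcer, and lost their calls in 4 and 10. Summed over the 27 genes, CuiYu held 8909 to 10062 CPM, and no other library exceeded 6044 CPM.

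**Figure D4:**
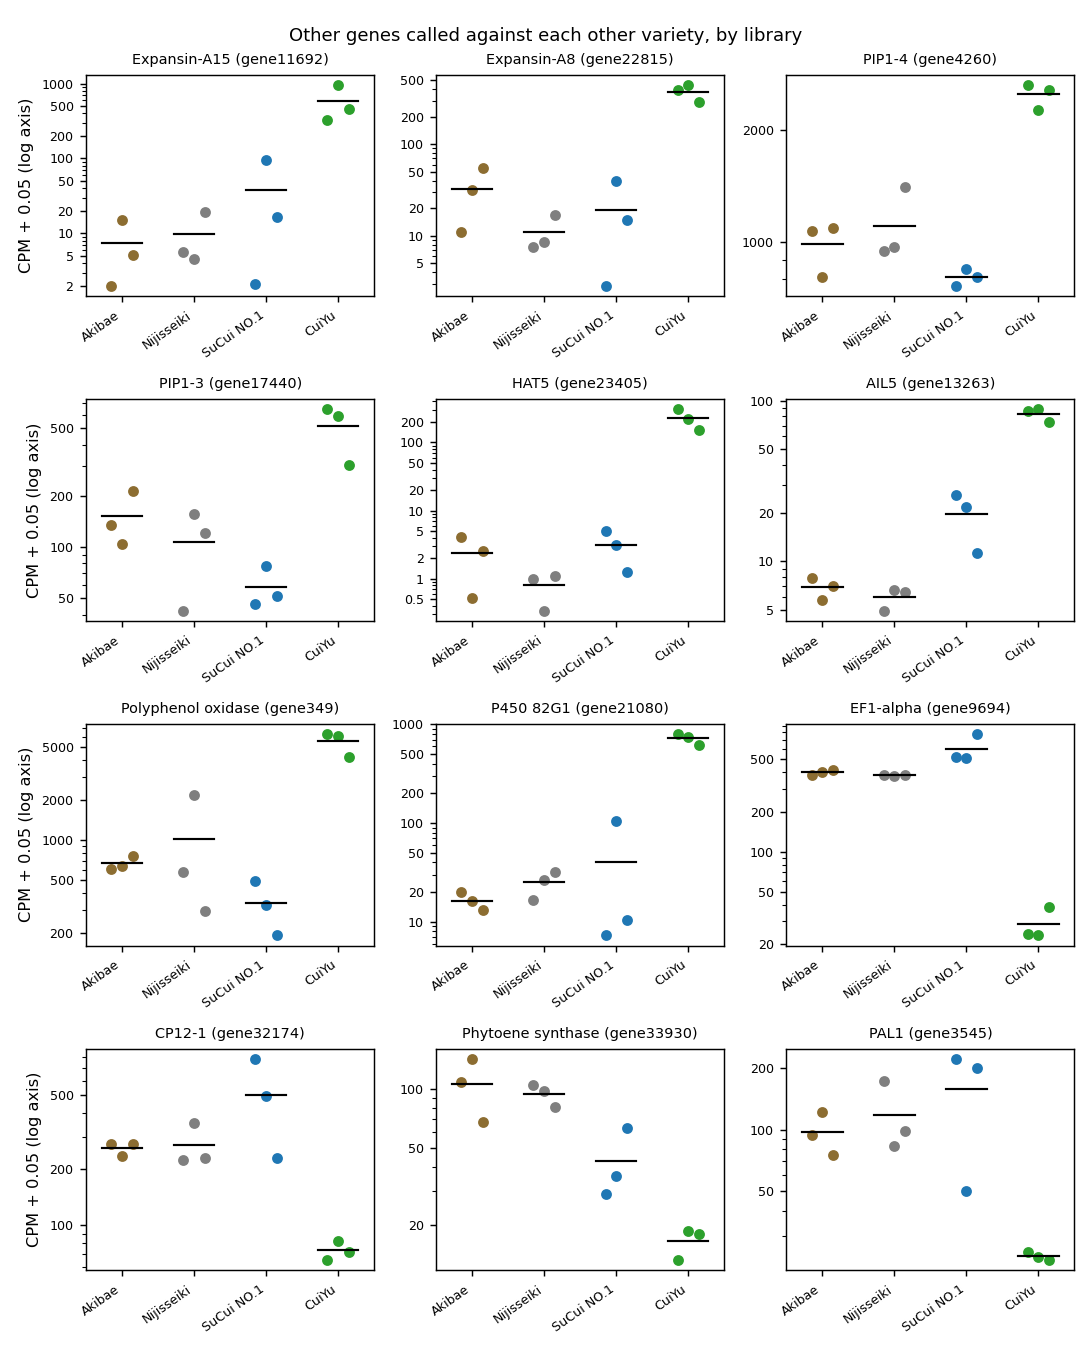
The 12 panels show genes of other groups, 8 higher and 4 lower in CuiYu, with 1 dot per library and a black bar at the variety mean, as CPM plus 0.05 on a log axis. HAT5 and cytochrome P450 82G1 are far above the other varieties, and the elongation factor 1-alpha gene is far below them.

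Among transcription factors, the homeobox list had 4 of 63 genes higher (6.3%) and 3 lower (4.8%), beside 2.11% and 2.3% of all genes. Its count of higher genes was 2 in 8 of 12 single exclusions, those of each CuiYu library among them, and 7 without Akibae replicate 3. The widest gap was for HAT5 (gene23405, on chromosome 17, 20083745 to 20087538), an HD-ZIP class I factor known as ATHB-1 in Arabidopsis. It was at 4.01, 0.479 and 2.48 CPM in the Akibae libraries, 0.957, 0.289 and 1.05 in those of Nijisseiki, 5.02, 3.05 and 1.22 in those of SuCui NO.1 and 306, 223 and 154 CPM in those of CuiYu. The gene was almost silent outside CuiYu, and CuiYu exceeded the nearest variety 73.8-fold, with a largest adjusted p of 0.000372. The HD-ZIP class IV genes ROC3 (gene22078) and ROC5 (gene20294), named after rice factors of the outer cell layer, had 16.6 CPM against 2.19, 2.47 and 5.5, and 11.9 CPM against 1.72, 3.25 and 3.67. ROC3 kept its call in all 12 single exclusions, while ROC5 and the class II gene HAT4 (gene1868) each lost it in 10. On the lower side, the class I gene ATHB-6 (gene2221, on chromosome 15, 35224791 to 35226423) had no read in CuiYu and means of 13.1, 6.14 and 6.3 CPM elsewhere, at least 179-, 88.1- and 88-fold lower than in Akibae, Nijisseiki and SuCui NO.1. The other 2 lower genes were both named HAT22 (gene1284 and gene30058), with 12.8 and 0.287 CPM in CuiYu.

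Of 93 AP2 and ERF genes tested, 2 (2.2%) were higher and 2 (2.2%) lower, shares near the 2.11% and 2.3% of all genes. The 2 higher ones were both named AIL5, after an AP2 factor that promotes organ growth in Arabidopsis. The first (gene13263, on chromosome 1, 4675028 to 4681933) was at 7.86, 5.67 and 6.98 CPM in the Akibae libraries, 4.87, 6.57 and 6.37 in those of Nijisseiki, 25.7, 21.9 and 11.3 in those of SuCui NO.1 and 86.3, 88.5 and 73.6 CPM in those of CuiYu. The second (gene8970, on chromosome 5, 20847745 to 20850690) was at 9.79, 8.06 and 8.55 CPM in the Akibae libraries, 5.13, 8.89 and 5.32 in those of Nijisseiki, 17.9, 15.2 and 10.3 in those of SuCui NO.1 and 46.7, 55.5 and 40.3 CPM in those of CuiYu. SuCui NO.1 lay between CuiYu and the other varieties for both, the smallest folds were 4.22 and 3.28, the largest adjusted p were 0.000842 and 0.00211, and both held in all single exclusions. Another gene with that name was lower, with 1.5 CPM against 5.21, 6.67 and 4.42. ERF091 (gene5398) was also lower, with a log2 difference from the mean of the others of -4.92 ± 1.01 (SE). Of 27 MADS genes tested, 2 (7.4%) were higher and 0 lower, beside 2.11% and 2.3% of all genes, and the higher count was 1 to 3 in single exclusions. A SEPALLATA 1 gene (gene27286), for a MADS factor of flower and fruit identity, had 33.6 CPM in CuiYu and 8.22, 8.76 and 6.81 CPM in the others, with a largest adjusted p of 0.0052. The other genes of that name summed to 76.3 CPM in CuiYu and 102, 65.1 and 81.7 CPM in Akibae, Nijisseiki and SuCui NO.1.

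Of 105 MYB genes tested, 5 (4.8%) were higher and 2 (1.9%) lower, beside 2.11% and 2.3% of all genes, so the second share was under that of all genes. The count of higher ones was 2, 1 and 3 without CuiYu replicate 1, 2 and 3, and 8 without Akibae replicate 3. The count of lower ones was 1 in 11 of the 12 single exclusions, in which MYB48 (gene25005) lost its call, and 2 without Nijisseiki replicate 1. PHL6 (gene36638, on chromosome 9, 17031761 to 17036550), of the family of phosphate response factors, was at 0.0771, 0 and 0.45 CPM in the Akibae libraries, 0.174, 0.0723 and 0 in those of Nijisseiki, 0.0837, 0 and 0.143 in those of SuCui NO.1 and 14.1, 20.6 and 19.2 CPM in those of CuiYu. This gene was close to absent in the other varieties, with a largest adjusted p of 0.000745. The other gene named PHL6 was at 17.7 CPM in CuiYu and 32, 22.7 and 27.5 CPM in Akibae, Nijisseiki and SuCui NO.1. MYB39 (gene24375), a regulator of suberin in Arabidopsis, had 13.8 CPM in CuiYu against 0.383, 1.72 and 4.33. Its call was lost without CuiYu replicate 2 or SuCui NO.1 replicate 1. MYB86 (gene15522), MYB306 (gene33195) and MYB108 (gene42097) had 67.2, 21.1 and 1.64 CPM in CuiYu, and each lost its call in 4 or 5 exclusions. MYB36 (gene29137, on chromosome 3, 13901591 to 13903480), which directs the Casparian strip in Arabidopsis roots, had no CuiYu read and means of 0.805, 0.723 and 0.62 CPM in the others.

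Auxin genes had 3 of 135 higher (2.2%) and 1 lower (0.7%), shares near or under those of all genes. The higher count was 6 without Nijisseiki replicate 1 and 5 without SuCui NO.1 replicate 2, and the lower count 0 without CuiYu replicate 1 or 2. The auxin response repressor gene IAA27 (gene5126, on chromosome 15, 12322973 to 12325869) was the widest, at 59.8, 87 and 172 CPM in the Akibae libraries, 32.7, 57.8 and 56.1 in those of Nijisseiki, 85.3, 200 and 77.2 in those of SuCui NO.1 and 614, 580 and 373 CPM in those of CuiYu. All CuiYu libraries lay above all others, with a smallest fold of 4.32 and a largest adjusted p of 0.0125. IAA3 (gene14714), with 163 CPM against 77.5, 66.7 and 63.8, and ARF3 (gene5414), with 61 CPM against 24.3, 23.3 and 28.5, differed by about 1 on the log2 scale from their nearest variety.

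Among cytochromes P450 outside the cutin and other lists, 6 of 100 tested were higher (6.0%) and 1 lower (1.0%), beside 2.11% and 2.3% of all genes, although the median was -0.18. The count of higher genes was 3 without CuiYu replicate 1 or 2, and the lower count was 0 without Akibae replicate 1 or 2 or any 1 CuiYu library. CYP82G1 (gene21080, on chromosome 10, 14448442 to 14461082), named after an Arabidopsis enzyme of volatile homoterpene synthesis, was at 19.9, 16.1 and 13 CPM in the Akibae libraries, 16.6, 26.4 and 31.9 in those of Nijisseiki, 7.2, 105 and 10.3 in those of SuCui NO.1 and 800, 740 and 623 CPM in those of CuiYu. CuiYu exceeded SuCui NO.1, the nearest variety, 17.7-fold, with a largest adjusted p of 0.00945. CYP85A (gene27293, on chromosome 17, 17924526 to 17927187), of the family that oxidises brassinosteroid precursors, was at 1.93, 2.07 and 1.13 CPM in the Akibae libraries, 0.522, 6.14 and 7.7 in those of Nijisseiki, 1.59, 11.2 and 6.03 in those of SuCui NO.1 and 104, 146 and 144 CPM in those of CuiYu. CYP94A1 (gene17350, on chromosome 10, 15801306 to 15803010), named after a vetch fatty acid hydroxylase, gave 0, 0 and 0 CPM in the Akibae libraries, 0, 0 and 0.07 in those of Nijisseiki, 0.251, 0 and 0.0717 in those of SuCui NO.1 and 29.4, 26.8 and 32.5 CPM in those of CuiYu. It had no read in Akibae, at least 383-fold below CuiYu, and 1 read in Nijisseiki. A second CYP94A1 gene (gene25545) was lower, with 0.707 CPM in CuiYu against 6.54, 14.3 and 13.6.

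Abundant genes higher in CuiYu also came from outside these groups. Polyphenol oxidase (gene349, on chromosome 5, 24700560 to 24702598), the chloroplast enzyme that turns phenols into browning quinones, was at 606, 644 and 766 CPM in the Akibae libraries, 581, 2187 and 295 in those of Nijisseiki, 490, 327 and 192 in those of SuCui NO.1 and 6276, 6092 and 4217 CPM in those of CuiYu. Nijisseiki replicate 2 was the nearest library, below the lowest CuiYu library, and the smallest fold was 5.41 with a largest adjusted p of 0.0273. The call was lost without Akibae replicate 1, Nijisseiki replicate 1 or 3, or CuiYu replicate 1 or 2 (0.051 to 0.078). An NB-LRR gene named after the tobacco N protein, which recognises a virus (gene14567, on chromosome 3, 22669819 to 22675594), was at 360, 380 and 462 CPM in the Akibae libraries, 333, 1229 and 1193 in those of Nijisseiki, 304, 249 and 308 in those of SuCui NO.1 and 2845, 3723 and 2647 CPM in those of CuiYu. Without CuiYu replicate 2 its largest adjusted p was 0.065. The histone deacetylase gene HDT1 (gene40294, on an unplaced scaffold) had means of 699, 738 and 482 CPM in the others and 1508 CPM in CuiYu, and lost its call in 7 single exclusions. MLP-like protein 34 (gene4360, on chromosome 16, 116860 to 117714), of a family related to the birch pollen allergen, was at 50, 5.51 and 30.1 CPM in the Akibae libraries, 16.4, 78.5 and 38.6 in those of Nijisseiki, 37.5, 56.8 and 26.1 in those of SuCui NO.1 and 660, 559 and 680 CPM in those of CuiYu, and kept its call in all 12.

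Of 13 genes tested at the entry to phenylpropanoids, from which lignin and flavonoids are made, 1 was lower (7.7%, against 2.3% of all genes) and none higher. The median log2 difference was -0.99 and 10 were below 0. The lower gene was phenylalanine ammonia-lyase 1 (PAL1, gene3545, on chromosome 12, 12671707 to 12674558), at 94.1, 122 and 75.2 CPM in the Akibae libraries, 174, 83 and 98.7 in those of Nijisseiki, 223, 50.1 and 201 in those of SuCui NO.1 and 25.1, 23.7 and 22.8 CPM in those of CuiYu. The CuiYu libraries were tightly grouped below all others, with a log2 difference of -2.35 ± 0.44 (SE) and a largest adjusted p of 0.0167. The call was lost without Akibae replicate 2 or any 1 CuiYu library (0.06 to 0.066), and without Nijisseiki replicate 1 the list had 2 lower genes. In the lists fed by that entry, 1 of 42 laccases and peroxidases was lower (2.4%), cationic peroxidase 1 (gene21781), with 0.989 CPM against 22.2, 28.1 and 11.5. Without SuCui NO.1 replicate 3 the count was 2. The summed level of that list went the other way, at 6747, 10990 and 5822 CPM in CuiYu against 525 to 4476 CPM in the other libraries, and most of it was a peroxidase 42 gene (gene9066). That gene was at 2233, 2318 and 2223 CPM in the Akibae libraries, 865, 3562 and 2857 in those of Nijisseiki, 237, 2296 and 1084 in those of SuCui NO.1 and 6266, 10466 and 5268 CPM in those of CuiYu. It passed against the mean of the others (adjusted p 0.0237) and against SuCui NO.1 (0.0334) but not against Akibae (0.138) or Nijisseiki (0.155). Of 35 flavonoid genes 1 was lower (2.9%), an anthocyanidin reductase gene of proanthocyanidin synthesis (gene40480), with 0.117 CPM against 1.59, 0.933 and 1.4. Of 56 monolignol genes 1 was higher (1.8%), caffeoylshikimate esterase (gene40617), with 48.5 CPM against 10.9, 12.2 and 15.7. The median log2 differences of the laccase and peroxidase, flavonoid and monolignol lists were -0.91, -0.88 and -0.29, beside 2.11% of all genes higher and 2.3% lower. The flavonoid count was 0 without CuiYu replicate 3 or Nijisseiki replicate 3, 2 without Nijisseiki replicate 1 or SuCui NO.1 replicate 1, and 3 without SuCui NO.1 replicate 3.

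Carotenoid and abscisic acid genes had 2 of 49 lower (4.1%, against 2.3% of all genes) and none higher, with a median of 0.07. That count was 0 without CuiYu replicate 2 and 1 without CuiYu replicate 1 or 3 or SuCui NO.1 replicate 1 or 3. Phytoene synthase (gene33930, on chromosome 9, 2627901 to 2631885), the committed step of carotenoid synthesis, was at 109, 144 and 67.8 CPM in the Akibae libraries, 105, 98.5 and 81.4 in those of Nijisseiki, 28.9, 35.6 and 63.1 in those of SuCui NO.1 and 13.1, 18.6 and 17.9 CPM in those of CuiYu. SuCui NO.1 lay between CuiYu and the other varieties, the smallest fold was 2.57, and the largest adjusted p of 0.0178 moved past the threshold without CuiYu replicate 1 or 2 or SuCui NO.1 replicate 3. NCED6 (gene15552), which cleaves carotenoids on the way to abscisic acid, had 2 reads in CuiYu and means of 1.42, 4.13 and 0.997 CPM elsewhere, and lost its call in 3 exclusions. Photosystem genes had 2 of 74 lower (2.7%), near the 2.3% of all genes, and none higher. Both were named photosystem I subunit O: gene23308, with 0.125 CPM against 3.31, 4.2 and 7.59, and gene36290, which lost its call in 8.

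The most abundant genes lower in CuiYu included single copies of larger families. An elongation factor 1-alpha gene (gene9694, on chromosome 3, 20397764 to 20400632), whose protein delivers aminoacyl-tRNA to the ribosome, was at 379, 401 and 414 CPM in the Akibae libraries, 379, 374 and 383 in those of Nijisseiki, 521, 510 and 777 in those of SuCui NO.1 and 23.8, 23.3 and 38 CPM in those of CuiYu. All CuiYu libraries lay far below all others, with a log2 difference of -3.99 ± 0.24 (SE) and a largest adjusted p of 1.34e-05. The other genes of that name summed to 6365 CPM in CuiYu and 6785, 6350 and 6133 CPM in Akibae, Nijisseiki and SuCui NO.1. A ribosomal protein L32-1 gene (gene27767, on chromosome 10, 13632523 to 13634258) and a histone H2A.2 gene (gene23059, on chromosome 12, 13563258 to 13565084) behaved alike, with 1.43 CPM against 90.9, 83 and 56.2, and 1.44 CPM against 38.4, 38.5 and 22.8. A second H2A.2 gene (gene40963) was higher, with 25.1 CPM against 1.83, 2.98 and 10.9. Across all names, 47 were carried by genes called in both directions. Reads of near-identical copies can be split between them, so the level of 1 copy is uncertain.

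The Calvin cycle regulator CP12-1 (gene32174, on chromosome 11, 31102036 to 31102775) was at 273, 237 and 275 CPM in the Akibae libraries, 225, 355 and 229 in those of Nijisseiki, 787, 497 and 229 in those of SuCui NO.1 and 65, 82.7 and 72.2 CPM in those of CuiYu, and its largest adjusted p was 0.00793. SuCui NO.1, which shared the harvest day with CuiYu, was the highest variety for it. A metallothionein type 2 gene (gene6092, on chromosome 11, 8718354 to 8719393), for a small metal-binding protein, was at 708, 161 and 212 CPM in the Akibae libraries, 737, 3.03 and 14.4 in those of Nijisseiki, 2637, 2099 and 317 in those of SuCui NO.1 and 4.59, 2.26 and 1.92 CPM in those of CuiYu. Its groups overlapped through 1 Nijisseiki library, the spread within varieties was wide, and 8 single exclusions ended the call (0.05 to 0.31).

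A set of genes was read in all other varieties and not at all in CuiYu. Of the 604 lower genes, 55 had 0 reads in all 3 CuiYu libraries, with a mean level in the others of 0.563 to 166 CPM (median 2.78). The receptor kinase gene CRK25 (gene33113, on an unplaced scaffold) had 238, 164 and 136 CPM in the Akibae libraries, 95, 179 and 209 in those of Nijisseiki and 90, 108 and 280 in those of SuCui NO.1. It was at least 2459-, 2273- and 2244-fold lower in CuiYu, set against 3 reads. A cysteine-tRNA ligase gene (gene31335, on chromosome 17, 171228 to 175371) had means of 21, 12.4 and 9.15 CPM. A hisIE gene (gene9693, on chromosome 3, 20393346 to 20395510), of histidine synthesis, had 8.93, 8.8 and 14.7 CPM. The other genes named hisIE summed to 48.3 CPM in CuiYu and 20.9, 28.3 and 26.7 CPM in Akibae, Nijisseiki and SuCui NO.1. With that name, 2 genes were called higher and 1 lower in CuiYu. The ubiquitin ligase gene XB3 (gene38318) and a gene for the peroxisomal import protein PEX14 (gene40277) were at 6.84, 7.84 and 9.77, and at 6.35, 7.25 and 10.3 CPM. Another gene named PEX14 was at 93.4 CPM in CuiYu and 71.4, 80 and 123 CPM in Akibae, Nijisseiki and SuCui NO.1. With 3 reads or fewer in CuiYu, an S-adenosylmethionine-dependent methyltransferase gene (gene11263) was higher in Akibae, Nijisseiki and SuCui NO.1 by ratios of 566 (95% interval 156 to 4682), 684 (95% interval 189 to 5650) and 521 (95% interval 144 to 4310).

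The reverse set held 32 genes with reads in CuiYu and 0 reads in all 9 other libraries, at 1.12 to 51.3 CPM (median 2.8), of which 15 had a name. An RRP42 gene (on chromosome 9, 15209559 to 15210251), for a subunit of the RNA exosome, had 62.9, 33.3 and 57.6 CPM in CuiYu, at least 669-, 682- and 677-fold above Akibae, Nijisseiki and SuCui NO.1. A U-box protein 52 gene (gene6503) had 7.87, 11.5 and 10.5 CPM and the amino acid carrier gene LHT1 (gene19493) 8, 5.87 and 8.18 CPM. An alcohol dehydrogenase 1 gene (gene29937) had 6.75, 6.47 and 5.75 CPM, a gene named after the PSY1 peptide receptor (gene2376) 5.36, 4.97 and 3.17 CPM, and a leucine-rich repeat kinase gene (gene32838) 3.83, 5.87 and 5.45 CPM. The protease gene SBT1.3 (gene36668) had 10.5, 12.9 and 10.3 CPM in CuiYu and 1 read in SuCui NO.1. It lies within the span of a resistance gene also called higher (gene36666), so their reads cannot be told apart with certainty. Where a variety gave 0 reads, a gene that is silent there and one whose sequence is lost or too diverged to be counted look alike. Other genes of the same name could be read there. Those with the name of the RRP42 gene summed to 139 CPM in CuiYu and 35.8, 30.8 and 19.8 CPM in Akibae, Nijisseiki and SuCui NO.1.

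Counted over all 43732 genes in the table, 42 had no CuiYu read and at least 3 reads in every other library. The same count was 95 for SuCui NO.1, 32 for Akibae and 7 for Nijisseiki. In the other direction, 72 genes had at least 3 reads in each CuiYu library and none elsewhere, against 60 for SuCui NO.1, 19 for Nijisseiki and 18 for Akibae.

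Some of the called genes lay side by side. Of the 555 higher genes, 123 (22.2%) were next to another higher gene among the tested genes in order of start, and of the 604 lower genes 145 (24.0%) were next to another lower one. Runs of 3 or more held 43 higher genes in 11 runs and 57 lower genes in 17. The longest run, of 6 higher genes, began at 7942599 on chromosome 10 and its last gene by end, RPS6, reached 8053354. It held TM9SF5 (gene24001), a DEAD-box helicase 7 gene (gene24002) and the resistance genes At4g11170 (gene24004), RPS6 (gene24005) and WRKY19 (gene24006). All 6 were at 0 reads in Akibae and Nijisseiki. RPS6 was at 15.2, 21.5 and 16.7 CPM in CuiYu. The WRKY19 gene lies within the span of RPS6, so their reads cannot be told apart with certainty.

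On chromosome 9, a run of 5 higher genes between 15209559 and 15254093 held the RRP42 gene described above, a second RRP42 gene and an ADA2a gene of a histone acetyltransferase adapter. A run of 4 between 15333754 and 15370100 repeated ADA2 and Rrp42 names. Among the lower runs, 5 genes on chromosome 3 between 20393346 and 20458040 included hisIE, the elongation factor 1-alpha gene, a disulfide isomerase and exonuclease V. A run of 5 on chromosome 6 between 5539149 and 5709408 held REV1 and methylthioribose kinase genes. The CRK25 gene above was 1 of 4 lower CRK25 genes in a row on an unplaced scaffold, of which gene33113 spans gene33114. By chromosome, the share of tested genes that were higher in CuiYu was 4.1% on chromosome 9 and 0.271% on chromosome 2, and the share that were lower was 4.34% on chromosome 3 and 0.763% on chromosome 5.

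**Figure D5:**
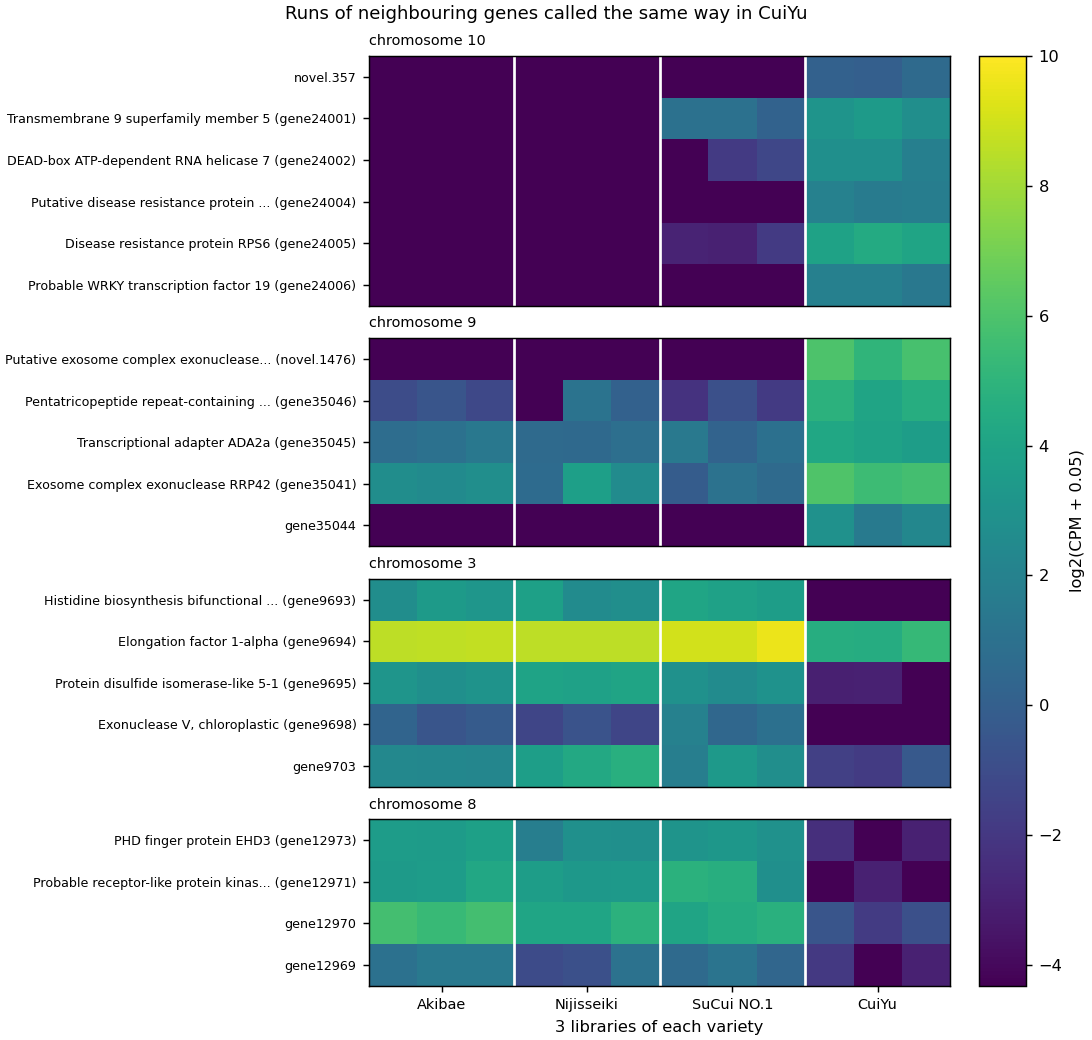
Rows are the genes of 4 runs of neighbours, on chromosomes 10, 9, 3 and 8, in order of start, and columns are the 12 libraries, with colour for log2 of CPM plus 0.05. Genes of the run on chromosome 10 are read in CuiYu and at 0 in Akibae and Nijisseiki. Genes of the run on chromosome 9 are higher in CuiYu, and some of them are also read at lower levels in the other varieties. Genes of the runs on chromosomes 3 and 8 are low in all 3 CuiYu libraries.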

How the data were processed

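Total RNA of fruit skin was extracted with CTAB and made into libraries with an NEB Next Ultra kit, per the labels' protocols. The authors deposited 1 table of 43732 genes with raw read counts and FPKM values for each library, per the file headers. The aligner, counter, genome build, annotation and strand setting are named in no source used here, and coordinates are as deposited. Names are the table's Swiss-Prot matches, present for 69.3% of genes. The deposited FPKM used a scale 0.92 to 1.11 times each library's count total, and no test used them.

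Counts were analysed in R 4.3.3 with edgeR 4.0.16, on TMM scaling and after edgeR's expression filter. 26307 genes were tested and 17425 were not. One quasi-likelihood fit held all 12 libraries with 1 mean per variety, and Benjamini-Hochberg adjustment ran over all genes tested. Standard errors of log2 differences were the difference divided by the root of its F value. CPM values use TMM library sizes. P-values cover the spread between these libraries. The biological coefficient of variation was 0.41. The fit was tested on simulated counts. The rule of 3 pairwise tests recovered 3% of genes changed by a log2 of 1, 44.8% at 2 and 87.9% at 4, and called 1 unchanged gene. A gene that was not called can therefore still differ by a log2 of 1. Depth ran from 11981445 to 15136559 reads, so 3 reads over 3 libraries came to 0.0728 to 0.0772 CPM.

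Lists were matched on names. Members and lists were chosen with earlier results of these data known. Named genes had a name, at least 1 CPM on average and a call. They were the 8 per direction with the largest smallest fold, the 4 most abundant per direction, and 1 per list and direction, and other called members of lists were added after their values were seen. Genes that missed a call were also chosen after their values were seen. Alternatives were DESeq2 1.42.0, other scaling, filters, a 2-fold threshold, separate pairs, a replicate block, a floor per library and leaving out each library. The Chili variety named in the labels was not analysed here.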

Additional observations from a re-analysis of the deposited data

How the results depend on the processing

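Depth left 17425 genes with too few reads to test. The counts against each other variety, 555 higher and 604 lower, were 922 and 967 with DESeq2 and 168 and 219 with a test against 2-fold, which asks for more. Against the mean of the others, 2971 higher and 2191 lower genes became 899 and 533 in the 2-fold test, and the lower count was 3556 with DESeq2; the cause of the DESeq2 differences was not tested. Leaving out 1 library gave 240 to 624 higher and 322 to 651 lower against each variety, and 1619 to 3387 higher and 880 to 2429 lower against the mean, lowest without CuiYu replicate 2 and highest without Nijisseiki replicate 1. DESeq2's scaling gave 564 and 603 against each variety, no filter 504 and 551, a filter at 1 CPM 495 and 582, and separate fits of the pairs 576 and 494. With a replicate block the 4 counts were 526, 573, 2934 and 2003. The shared numbers were not taken as pairing CuiYu with the others: same-numbered libraries correlated over 0.1 in 5 of 18 pairs (r -0.218 to 0.369), other pairs at -0.317 to 0.226. The pairs of Nijisseiki and SuCui NO.1 were all over 0.1 (0.369, 0.362 and 0.196), those with CuiYu ran from -0.181 to 0.199, and 6 of 12 libraries were closest to their own number. Of 124 named called genes, 124 kept the call with DESeq2 and with its scaling, 117 without a filter, 108 in separate pairs, 107 with the replicate block, 49 in the 2-fold test, and 72, 66 and 87 without CuiYu replicate 1, 2 or 3. No named gene changed sign in any alternative. A floor of 3 reads in each library lowered all 62 lower-bound folds.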

Other observations

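Of 442 NB-LRR resistance genes tested, 19 (4.3%) were higher and 13 (2.9%) lower in CuiYu than in each other variety, beside 2.11% and 2.3% of all genes, with a median log2 difference from the mean of the others of 0.31. Without CuiYu replicate 1 or 2 the higher count was 12 and 8, and without CuiYu replicate 1, 2 or 3 the lower count was 8, 7 and 7. An At4g11170 gene (gene15485, on chromosome 13, 15725731 to 15727318) had no CuiYu read and means of 5.52, 1.37 and 1.45 CPM in Akibae, Nijisseiki and SuCui NO.1. Among 566 receptor-like kinases, which sense peptides and pathogens, 17 (3.0%) were higher and 18 (3.2%) lower, and the higher count was 8 without any 1 CuiYu library and 11 without Akibae replicate 1 or 2. Of 136 pathogenesis-related and allergen genes 3 (2.2%) were higher and 4 (2.9%) lower, shares near those of all genes. The higher count was 1 without Akibae replicate 1 or 2, CuiYu replicate 2 or SuCui NO.1 replicate 3, and the lower count was 2 without CuiYu replicate 2. A thaumatin-like gene (gene4646) had 1.82 CPM in CuiYu against 8.09, 8.4 and 12.6, and a chitinase 1 gene (gene6756), for an enzyme that cuts fungal wall chitin, 1.83 CPM against 9.29, 16.8 and 7.23. Both kept their calls in all 12 single exclusions.

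Of 180 sugar, sorbitol and starch genes 6 (3.3%) were higher and 4 (2.2%) lower, beside 2.11% and 2.3% of all genes. The lower count was 0 without Akibae replicate 1 or 2 or CuiYu replicate 1 or 2, 1 without CuiYu replicate 3 or Nijisseiki replicate 3, and 2 without Nijisseiki replicate 1 or SuCui NO.1 replicate 3. The neutral invertase gene CINV2 (gene2731), which splits sucrose in the cytosol, had 494, 539 and 460 CPM in the CuiYu libraries and means of 216, 288 and 246 CPM in the others, and the vacuolar-type acid invertase gene35715 had 7.38 CPM against 0.231, 0.491 and 0.151. Both kept their calls in all 12 single exclusions. Polyol transporter 5 (gene36705), of the family that carries sorbitol, was lower, with 106, 72.9 and 94.1 CPM in CuiYu against means of 313, 308 and 286, and lost its call in 6. Of 92 pectin genes 2 (2.2%) were higher and 3 (3.3%) lower. The higher count was 1 without any 1 Akibae library or CuiYu replicate 2 and 4 without SuCui NO.1 replicate 1 or 2. The lower count was 1 without Akibae replicate 2 or CuiYu replicate 1 or 2 and 5 without SuCui NO.1 replicate 1. A polygalacturonase gene, for an enzyme that cuts pectin, had 0.0955 CPM in CuiYu against 5.73, 16.7 and 5.42, and the pectin methyltransferase gene QUA2 (gene27828) 40.2 CPM against 13.5, 17 and 16.4. Of 58 triterpene and sterol genes 2 (3.4%) were higher and 1 (1.7%) lower, with a median of 0.03. The higher count ran from 0 to 2 in the single exclusions. The 2 were beta-amyrin synthase genes, of triterpene synthesis. They had 16.8 (gene26782) and 4.91 CPM (gene41418) in CuiYu and at most 2.71 CPM as a mean elsewhere, and lost their calls in 5 and 10 exclusions. Without gene26782, genes of that name summed to 957 CPM in CuiYu and 643, 776 and 1770 CPM in Akibae, Nijisseiki and SuCui NO.1. Cytosolic ribosomal genes had 5 of 288 (1.7%) higher and 7 (2.4%) lower, close to the shares of all genes, and 223 of them were below 0 with a median of -0.29. The higher count was 2 without Akibae replicate 1 or CuiYu replicate 3 and 3 without CuiYu replicate 1 or SuCui NO.1 replicate 1. The lower count was 3 and 4 without CuiYu replicate 1 and 2, and 14 without SuCui NO.1 replicate 1. No gene was called in the lists of NAC factors (64 tested), ethylene (33), cellulose and secondary wall (87) or chlorophyll (26). Tests against the mean passed there for 7 higher and 5 lower, 1 and 1, 10 and 1, and 1 and 0 genes. Of all genes tested, 11.3% were higher and 8.33% lower than the mean.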
